A study of Mus musculus with 2 samples.

Results

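The 6 genes of the platelet-derived growth factor (PDGF) system that were followed here are the receptors Pdgfra and Pdgfrb and the ligands Pdgfa, Pdgfb, Pdgfc and Pdgfd. They were taken by symbol from the 26100 genes listed in both of 2 mouse single-cell RNA libraries. One library held mouse embryonic fibroblasts (MEF), a connective tissue culture kept in MEF media. The other held induced myogenic progenitor cells (iMPC), which the labels describe as made from such fibroblasts with MyoD, a muscle-determining transcription factor, plus a treatment abbreviated F/R/C, and then grown with F/R/C. Both cultures carried the transgene Tg:Pax7-nGFP on a C57BL6;DBA2 background, and the design text calls the iMPC culture a stable clone, so it is 1 clone. Each group was 1 library, so no test was possible and no p-value is given. Intervals are exact, at 95%, and cover counting error only.

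PDGF ligands are secreted dimers that bind receptor tyrosine kinases on mesenchymal cells. The alpha receptor binds PDGF-A, PDGF-B and PDGF-C and marks fibroblasts and the fibro-adipogenic progenitors of muscle. The beta receptor binds PDGF-B and PDGF-D and marks pericytes and other mural cells. Muscle satellite cells, the Pax7-positive stem cells of muscle, are classically described as a separate lineage from the Pdgfra-positive interstitial cells.

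In brief, Pdgfra and Pdgfd were 12.4-fold and 17.1-fold lower in the iMPC library than in MEF, while Pdgfb gave 378 UMIs in iMPC and 1 in MEF. Within iMPC both receptors had their highest level in cells rich in Dcn, the matrix proteoglycan decorin that marks fibroblasts, and were low in differentiating muscle cells. The ligands divided. Pdgfa and Pdgfc were higher in Pax7-positive cells than in cells with the muscle creatine kinase gene Ckm, whereas Pdgfb and Pdgfd, both at low counts, were higher in the Ckm cells.

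The promoter windows of Pdgfra and Pdgfd are shown because these members were more than 2-fold lower in iMPC. Each covers 250 bases before to 50 bases after a transcription start in RefSeq (GRCm38.p6), and a window was found for 4 of the 6 members. Capitals mark matches to CANNTG, the E-box to which MyoD and other basic helix-loop-helix proteins can bind, read on both strands, and to TATAAA, read on both strands. The motifs do not overlap here.
Pdgfra, chr5:75152001-75152300, plus strand: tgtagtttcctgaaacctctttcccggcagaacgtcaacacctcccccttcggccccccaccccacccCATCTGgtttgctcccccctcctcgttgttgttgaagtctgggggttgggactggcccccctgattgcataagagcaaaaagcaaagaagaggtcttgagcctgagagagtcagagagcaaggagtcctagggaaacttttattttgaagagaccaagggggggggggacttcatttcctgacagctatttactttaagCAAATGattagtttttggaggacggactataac
Pdgfd, chr9:6168236-6168535, plus strand: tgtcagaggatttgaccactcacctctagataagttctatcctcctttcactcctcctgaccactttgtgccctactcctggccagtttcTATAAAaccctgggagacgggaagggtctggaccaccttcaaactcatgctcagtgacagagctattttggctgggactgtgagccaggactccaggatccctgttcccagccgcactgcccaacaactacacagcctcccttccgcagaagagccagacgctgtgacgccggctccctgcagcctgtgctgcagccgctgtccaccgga
The Pdgfra window held 2 E-box matches, CATCTG beginning at -182 and CAAATG beginning at 17 relative to the start. No match to CANNTG was found in the windows of Pdgfa, Pdgfc and Pdgfd, although 72.3% of the 32851 RefSeq windows of this length held at least 1. TATAAA stood once, in the Pdgfd window, beginning at -160, and 13.6% of all windows held it. These are matches of letters and were not tested against the levels.

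Cells were split by the counts of 4 genes that are not members. A unique molecular identifier (UMI) stands for 1 captured RNA molecule, read near its 3′ end. MEF cells with at most 20% mitochondrial UMIs numbered 6043, with 118069653 UMIs and a median of 18929 per cell. The iMPC library gave 9349 cells at or above the UMI minimum, with 232728796 UMIs and a median of 20846. Of these, 2180 held Pax7 without the differentiation factor Myog (the Pax7 class) and 1724 held at least 5 Myog UMIs with at most 1 of Ckm (the Myog class). Another 1037 held at least 5 Ckm UMIs (the Ckm class) and 553 at least 5 Dcn UMIs (the Dcn class). The other 4001 fell in no class, and 146 fell in more than 1, of which 110 were both Pax7 and Dcn cells. Median depth was 18729.5 UMIs in the Pax7 class, 23857.5 in the Myog class, 42148 in the Ckm class and 18064 in the Dcn class, so shares of cells were compared after each cell was thinned to 5000 UMIs, which left out 284 shallower MEF cells. Levels are CPM, a gene's UMIs scaled to 1000000 UMIs of its group, and are not scaled by gene length. The libraries shared 16 cell barcodes.

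The labels were checked against marker genes. All 9 fibroblast markers reached 10 CPM in MEF and in the Dcn class, but 8 of 9 also did so in the Pax7 class. Of 9 satellite cell markers, 7 reached it in the Pax7 class, 7 in the Dcn class, 6 in the Myog class, 4 in the Ckm class and 3 in MEF. These counts therefore do not set the Pax7 and Dcn classes apart. The summed levels differed, at 703 CPM of satellite cell markers in the Pax7 class and 379 in the Dcn class. Pax7 itself is not among these 9 markers. Summed endothelial markers stayed at or under 1.15 CPM in MEF and in each class, and epithelial markers at or under 0.514 CPM.

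Pdgfra, the alpha receptor gene (chromosome 5, 75152292 to 75198215, plus strand, GRCm38), gave 88.1 CPM in MEF (10403 UMIs, interval 86.4 to 89.8). In the iMPC library it gave 7.10 CPM (1653 UMIs, 6.76 to 7.45). Its levels within iMPC were 63.5 CPM in the Dcn class, 7.63 in the Pax7 class, 1.86 in the Myog class and 1.09 in the Ckm class. The order was thus MEF, Dcn, Pax7, Myog and Ckm cells, and no 2 neighbours in it had overlapping counting intervals. The library difference was -3.63 on the log2 scale (-3.71 to -3.56). At 5000 UMIs per cell, 31.3% of MEF cells held a Pdgfra UMI, against 3.23% of iMPC cells, 23.7% of the Dcn class and 3.35% of the Pax7 class. The unthinned shares were 63.2%, 7.96%, 54.4% and 7.20%. Only 5.92% of iMPC cells were in the Dcn class, but they held 46.8% of the library's Pdgfra UMIs.

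Pdgfrb, the beta receptor gene (chromosome 18, 61045150 to 61085061, plus strand), differed little between the libraries as a whole. It gave 45.7 CPM in MEF (44.5 to 46.9) and 39.1 CPM in iMPC (38.3 to 39.9). The log2 ratio was -0.23 (-0.27 to -0.18), but it became 0.08 when each cell's own CPM was averaged, so no direction is given. Inside iMPC the spread was wide, with 186 CPM in the Dcn class (179 to 194), 59.7 in the Pax7 class (57.4 to 62.0), 6.21 in the Myog class and 5.24 in the Ckm class. Dcn-class cells therefore exceeded MEF by 2.03 on the log2 scale (1.96 to 2.10), whereas for Pdgfra they were below MEF by a log2 ratio of -0.47 (-0.58 to -0.37). The Myog and Ckm classes did not differ beyond counting error in Pdgfrb (log2 ratio -0.25, -0.49 to 0.00). Thinned shares were 19.9% of MEF cells, 16.3% of iMPC cells, 53.3% of the Dcn class, 22.3% of the Pax7 class, 2.09% of the Myog class and 1.54% of the Ckm class. Of the library's Pdgfrb UMIs, 24.9% were in the Dcn class, 28.9% in the Pax7 class and 46.2% in cells of no class, so most Pdgfrb RNA lay outside the Dcn class although its level was highest there.

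**Figure D1:**
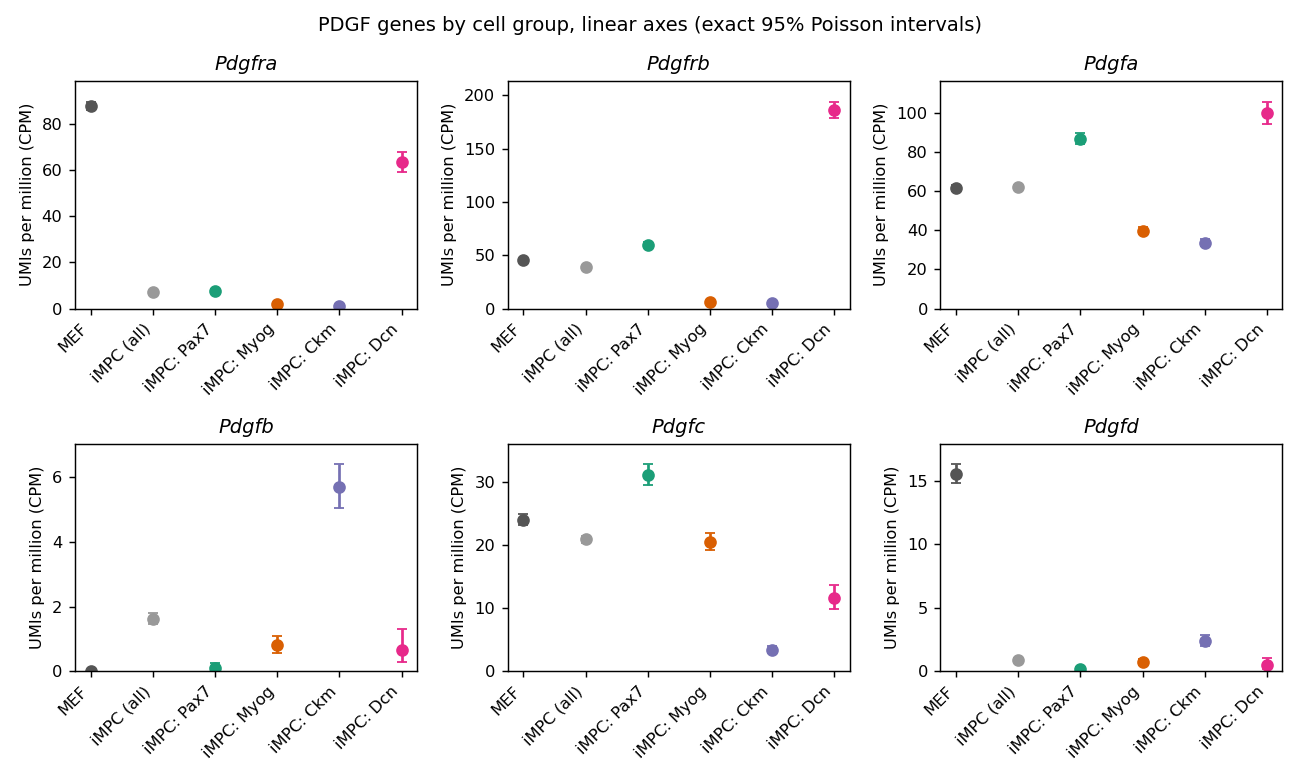
Level of each PDGF gene in CPM (linear vertical axes from 0, with a different range for each gene) in MEF cells, all iMPC cells and the 4 iMPC classes; points are group sums and bars are exact 95% Poisson intervals. Pdgfra is highest in MEF at 88.1 and Pdgfrb in the Dcn class at 186, while Pdgfb is highest in the Ckm class at 5.69.

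The balance of the receptors followed the same groups. Pdgfra made up 65.9% of receptor UMIs in MEF (65.1 to 66.6%) and 15.4% in iMPC (14.7 to 16.1%). Among classes it was 25.4% in Dcn cells (23.9 to 27.0%) and 11.3% in Pax7 cells (10.2 to 12.5%), and 6.26% in Pax7 cells with no Dcn UMI (5.23 to 7.42%). Dcn-class cells thus carried both receptors with Pdgfrb the larger part, the opposite of MEF. Thinned to 5000 UMIs, 6.79% of MEF cells held both receptors, 24.6% Pdgfra alone, 13.1% Pdgfrb alone and 55.5% neither. In the Dcn class 11.4% held both, 12.3% Pdgfra alone, 42.0% Pdgfrb alone and 34.4% neither. The Pax7 class was mostly without either (75.7%), and 20.9% held Pdgfrb alone, 1.93% Pdgfra alone and 1.42% both. Neither receptor was found in 97.6% of Myog cells and 98.3% of Ckm cells. Cells scored as holding 1 receptor alone may hold the other below detection at this depth: unthinned, 36.7% of MEF cells and 47.0% of Dcn-class cells held both.

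**Figure D2:**
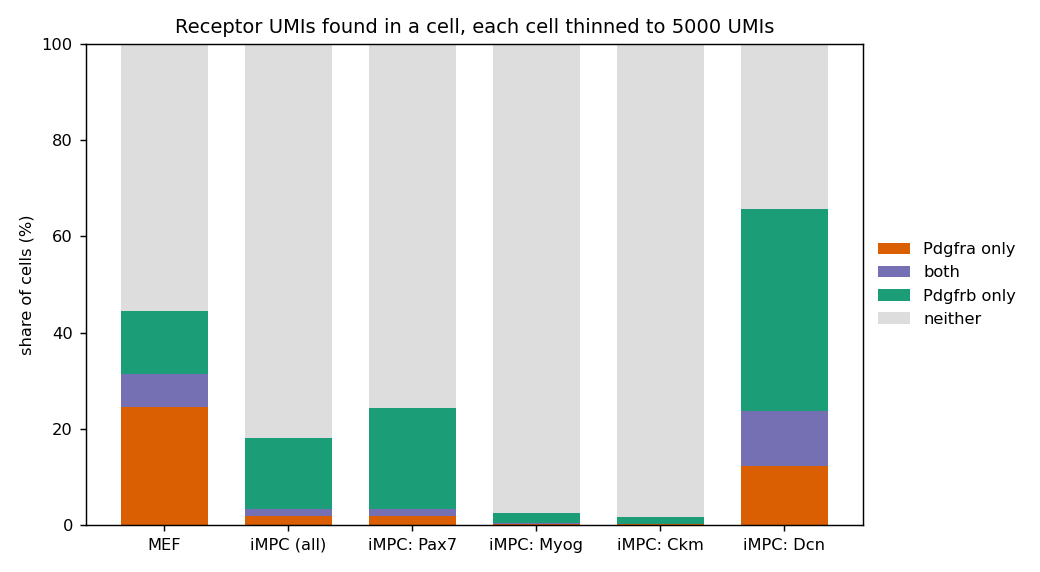
Share of cells (vertical axis, percent) with a UMI of Pdgfra only, both receptors, Pdgfrb only or neither, each cell thinned to 5000 UMIs, in MEF, all iMPC cells and the 4 classes. Pdgfra alone is the largest positive state in MEF (24.6%) and Pdgfrb alone in the Dcn class (42.0%).

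Both receptors were higher in cells with more Dcn. In iMPC cells with 0 Dcn UMIs Pdgfra stood at 2.74 CPM and Pdgfrb at 26.8 CPM. At 1 Dcn UMI they stood at 16.6 and 64.2 CPM, at 2 to 4 at 30.5 and 132, and at 5 to 9 at 47.1 and 161. Cells with 10 to 19 Dcn UMIs gave 56.5 and 197 CPM, those with 20 to 49 gave 61.3 and 187, and those with 50 to 99 gave 120 and 221. The rise of Pdgfrb was steepest at low Dcn counts, and from 10 UMIs its intervals overlapped from bin to bin, while Pdgfra stepped up again in the 54 cells of the bin from 50 to 99. Among the Dcn-class cells the 110 that also belonged to the Pax7 class had 63.0 CPM of Pdgfra and 187 of Pdgfrb. Dcn-class cells without Pax7 had 68.6 and 199 CPM, which differed from these by less than counting error for each receptor (log2 ratio -0.12, -0.40 to 0.15, and -0.08, -0.24 to 0.07). Pax7 cells with no Dcn UMI had 3.17 and 47.4 CPM. Of the 110 cells, 1 was marked as a doublet by its expression profile, against 41 of all 553 Dcn cells (7.41%).

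Other cell type markers also differed between the Dcn and Pax7 classes, in both directions. Summed fibroblast markers were 5713 CPM in the Dcn class and 2083 in the Pax7 class. Pericyte markers summed to 143 and 66.4 CPM, with no marker at 0 in either class. Fibro-adipogenic progenitor markers summed to 106 and 38.6 CPM, with Tcf21 at 0 in both and Dpp4 at 0 in the Dcn class. Myocyte markers summed to 3631 CPM in the Dcn class and 715 in the Pax7 class, which was chosen without Myog. They were higher still where the receptors were lowest, at 11245 CPM in the Myog class and 41164 in the Ckm class. Lower in the Dcn class than in the Pax7 class were satellite cell markers (379 against 703 CPM) and cycling markers (295 against 923). The part of these markers in the receptor levels was not tested.

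Of the 6 members, 4 reached 10 CPM in the Dcn or the Pax7 class, and 2 of them, Pdgfra and Pdgfrb, were at least 2-fold higher in the Dcn class, where 11.0% of 8196 genes were. Pdgfc was at least 2-fold lower there (log2 ratio -1.42, -1.68 to -1.17), as were 6.77% of the genes. Receptor ratios of Dcn over Pax7 cells were 3.06 on the log2 scale for Pdgfra (2.87 to 3.25) and 1.64 for Pdgfrb (1.56 to 1.72). The 2 classes share 110 cells, so these intervals, which take the counts as separate, do not hold exactly. Dcn-class cells without Pax7 over Pax7 cells with no Dcn UMI, which share none, gave 4.44 for Pdgfra (4.15 to 4.73). They gave 2.07 for Pdgfrb (1.97 to 2.17) and -1.71 for Pdgfc (-2.07 to -1.38). Between the full classes, the median log2 ratio of (CPM + 1) over the 4 members was 0.91, beside 0.01 over all genes counted.

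Pdgfa, a ligand of the alpha receptor (chromosome 5, 138976014 to 138997370, minus strand), was nearly equal in the libraries. It gave 61.5 CPM in MEF (60.1 to 62.9) and 61.9 CPM in iMPC (60.9 to 62.9), a log2 ratio of 0.01 (-0.03 to 0.05) that became 0.19 under scaling by the median gene. Levels within iMPC were 99.97 CPM in the Dcn class, 86.7 in the Pax7 class, 39.7 in the Myog class and 33.6 in the Ckm class. Dcn and Pax7 cells were thus close, and both stood above MEF, while the differentiating classes stood below it. Thinned shares were 22.2% of MEF cells, 24.8% of iMPC cells, 35.3% of Dcn, 30.8% of Pax7, 15.4% of Myog and 14.3% of Ckm cells.

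Pdgfc, a ligand that must be cleaved outside the cell before it binds the alpha receptor (chromosome 3, 81036416 to 81214040, plus strand), gave 24.1 CPM in MEF (23.2 to 25.0) and 21.0 CPM in iMPC (20.4 to 21.6). Its log2 ratio of -0.20 (-0.27 to -0.13) moved to -0.02 under scaling by the median gene. The highest level was in the Pax7 class at 31.2 CPM (29.5 to 32.9), followed by the Myog class at 20.6 (19.3 to 21.9), the Dcn class at 11.7 (9.82 to 13.7) and the Ckm class at 3.43 (2.93 to 3.99). The muscle classes separated these ligands. From Pax7 to Myog cells its log2 ratio was -0.60 (-0.72 to -0.48), against -1.13 for Pdgfa (-1.21 to -1.05), and from Myog to Ckm cells it was -2.58 (-2.83 to -2.35), against -0.24 for Pdgfa (-0.34 to -0.14). The larger step was thus between Myog and Ckm cells for Pdgfc and between Pax7 and Myog cells for Pdgfa. Thinned shares were 12.7% of Pax7 cells, 9.63% of Myog cells, 4.70% of Dcn cells and 1.93% of Ckm cells, beside 10.4% of MEF cells.

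Pdgfb, a ligand of both receptors known from endothelial cells and platelets (chromosome 15, 79995874 to 80014977, minus strand), was nearly absent from MEF, with 1 UMI in 6043 cells. In iMPC it gave 378 UMIs, or 1.62 CPM (1.46 to 1.80), so the log2 ratio of 7.58 has a wide interval (5.10 to 12.89). Of these UMIs 277 (73.3%) were in the Ckm class, which held 11.1% of the cells. Its level there was 5.69 CPM (5.04 to 6.40), against 0.801 in the Myog class, 0.657 in the Dcn class and 0.114 in the Pax7 class. In thinned cells it was found in 32 of 1037 Ckm cells (3.09%, 2.12 to 4.33%), 7 Myog cells (0.406%) and 1 Dcn cell, and in 0 of 2180 Pax7 cells, which allows a share of up to 0.138% at this depth (3 cells of the total). Without thinning, 5 of these 2180 cells held it (0.229%). Summed endothelial markers were 1.15 CPM in the Ckm class, the highest sum of the 4 classes, against 0.409 in the Pax7 class. Of the 6 markers, Kdr, Tie1 and Emcn were at 0 in the Ckm class, while Cldn5 gave 34 UMIs there against 0 in the Pax7 class and Cdh5 gave 15 against 1. Their part in the Pdgfb level was not tested.

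Pdgfd, a ligand of the beta receptor that is also activated by cleavage (chromosome 9, 6168584 to 6378850, plus strand), gave 15.6 CPM in MEF (14.9 to 16.3) and 0.911 CPM in iMPC (0.792 to 1.04). The log2 ratio was -4.10 (-4.31 to -3.89), the largest fall among the members. By value, its order within iMPC was that of Pdgfb. It gave 2.36 CPM in the Ckm class (1.95 to 2.84), 0.693 in the Myog class, 0.493 in the Dcn class and 0.182 in the Pax7 class, of which the Myog and Dcn values did not differ beyond counting error. Nor did the Dcn and Pax7 values of Pdgfd (log2 ratio 1.44, -0.37 to 3.16). For Pdgfb, the Dcn and Myog values did not differ beyond it either (-0.29, -1.60 to 0.84). The Dcn class, which had the highest receptor levels in iMPC, was below MEF in Pdgfd (log2 ratio -4.98, -6.43 to -3.86). Thinned shares were 7.05% of MEF cells and 0.289% of iMPC cells.

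Between the libraries, 5 of the 6 members reached 10 CPM in the higher one. None of the 5 was at least 2-fold higher in iMPC, where 14.8% of 8605 genes were, and 2, Pdgfra and Pdgfd, were at least 2-fold lower, where 21.5% were. The median log2 ratio of (CPM + 1) over the 5 was -0.22, beside -0.16 over all genes counted. Scaling by the median gene removes a log2 shift of -0.18 between the libraries. Relative to it Pdgfra stood at -3.45 and Pdgfd at -3.91.

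Between Pax7 and Ckm cells, 3 members reached 10 CPM, and all 3 (Pdgfrb, Pdgfa and Pdgfc) were at least 2-fold higher in Pax7 cells, where 30.2% of 8115 genes were. None was at least 2-fold lower, where 12.2% of genes were, but Pdgfra, Pdgfb and Pdgfd were under 10 CPM and not counted. The log2 ratio of Ckm over Pax7 cells was -3.51 for Pdgfrb (-3.70 to -3.32), -3.18 for Pdgfc (-3.42 to -2.95) and -1.37 for Pdgfa (-1.45 to -1.28). Among the members not counted, it was -2.81 for Pdgfra (-3.26 to -2.39), 5.65 for Pdgfb (4.41 to 7.28) and 3.70 for Pdgfd (2.67 to 4.95). Here the median gene shifted by a log2 ratio of -0.54, and relative to it Pdgfa stood at -0.83, under 2-fold. The median log2 ratio of (CPM + 1) of Pax7 over Ckm cells was 2.86 over the 3 members, beside 0.44 over all genes counted. This comparison and that of Dcn with Pax7 cells share the Pax7 cells.

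Finer steps of the Ckm count showed the same division of the ligands. Pdgfc stood at 28.3 CPM in iMPC cells with 0 Ckm UMIs, 16.7 at 1 to 4, 5.38 at 5 to 9, 3.72 at 10 to 19 and 1.53 at 20 to 49. Pdgfb went the other way over these bins, at 0.234, 1.59, 3.92, 5.79 and 6.87 CPM. Pdgfd was 0.297 CPM at 0 and 1.29 at 1 to 4, and then 2.72, 2.06 and 2.22 with overlapping intervals. Pdgfb therefore continued upward within the Ckm class while Pdgfd did not move beyond counting error there.

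**Figure D3:**
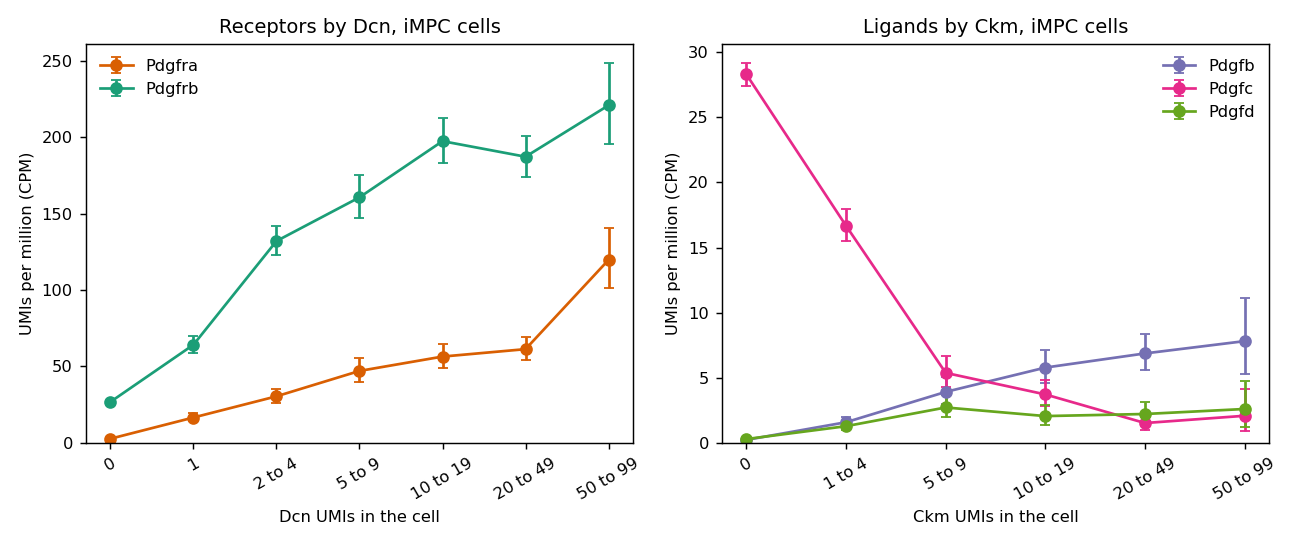
Levels in CPM (vertical axes from 0) in iMPC cells binned by their Dcn UMIs, for the receptors, and by their Ckm UMIs, for Pdgfb, Pdgfc and Pdgfd; bars are exact 95% Poisson intervals and bins under 20 cells are left out. Pdgfra goes from 2.74 to 120 and Pdgfrb from 26.8 to 221 with Dcn, and Pdgfc falls from 28.3 to 2.08 with Ckm while Pdgfb goes from 0.234 to 7.82.

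Detection of the receptors together with Pax7 in 1 cell was counted in the 9349 iMPC cells at 5000 UMIs each. Pdgfra and Pax7 were found together in 45 cells, where independent detection would give 61.3, a log2 odds ratio of -0.56 (-1.05 to -0.09). Pdgfrb and Pax7 were found together in 362 cells, against 309 if independent, a log2 odds ratio of 0.35 (0.16 to 0.54). When detection needed 2 UMIs the value for Pdgfrb was -0.15 (-0.84 to 0.47), so its direction is not firm. Pdgfra was found with Pax7 less often than independence gives at 5000 UMIs and without thinning (-0.57, -0.80 to -0.35). All 3 genes were found in 20 cells (0.214%), and in 227 cells without thinning (2.43%), of which 89 had at least 5 Dcn UMIs.

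These odds depended on which cells were counted. Among the 8244 iMPC cells with no Dcn UMI, Pdgfra and Pax7 gave a log2 odds ratio of 0.00 (-0.72 to 0.67) and Pdgfrb and Pax7 0.64 (0.42 to 0.85). Among the 3238 cells with neither Myog nor Ckm, the value was -1.06 for Pdgfra (-1.70 to -0.47) and -0.41 for Pdgfrb (-0.68 to -0.14). In the 2696 of these that also lacked Dcn, it was -0.46 (-1.35 to 0.36) and -0.20 (-0.50 to 0.11). At this depth the positive value for Pdgfrb was found, among these sets, only in all iMPC cells and in those with no Dcn UMI. Both sets include cells with Myog or Ckm UMIs, which were not all low in Pdgfrb. Those with 1 to 4 Myog UMIs had 57.2 CPM of it, against 39.1 in all iMPC cells. The part of these cells in the positive value was not tested. Within the Dcn class neither receptor departed from independence beyond counting error (Pdgfra -0.60, -1.79 to 0.46, and Pdgfrb -0.27, -1.12 to 0.58).

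The receptors were also compared with each other and with the ligands. In iMPC, Pdgfra and Pdgfrb were found together in 135 cells where 49.3 would be independent, a log2 odds ratio of 2.15 (1.81 to 2.50). In MEF they were found together in 391 of 5759 cells where 359 would be independent, a ratio of 0.23 (0.02 to 0.43). The MEF value was 1.16 without thinning, -0.052 at 2000 UMIs (-0.42 to 0.31) and -0.25 when detection needed 2 UMIs (-1.25 to 0.61), so no direction is given for it. The iMPC value was 2.93 without thinning. Joint detection was thus further from independence in iMPC than in MEF with and without thinning. Pdgfra with Pdgfa gave -0.31 in MEF (-0.52 to -0.11) and 0.35 in iMPC (-0.03 to 0.72). The MEF value turned to 0.38 without thinning (0.23 to 0.53), so no direction is given for it. Pdgfrb with Pdgfa gave 0.64 in iMPC (0.46 to 0.81) and 0.10 in MEF (-0.12 to 0.33). Without thinning these were 0.76 (0.63 to 0.89) and 0.82 (0.67 to 0.97), so no difference between the libraries is given for this pair. Pdgfb was found with Ckm in 30 of its 46 thinned cells, a log2 odds ratio of 3.60 (2.67 to 4.58). Cells of 1 library are not replicates, and these ratios describe each library only.

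**Figure D4:**
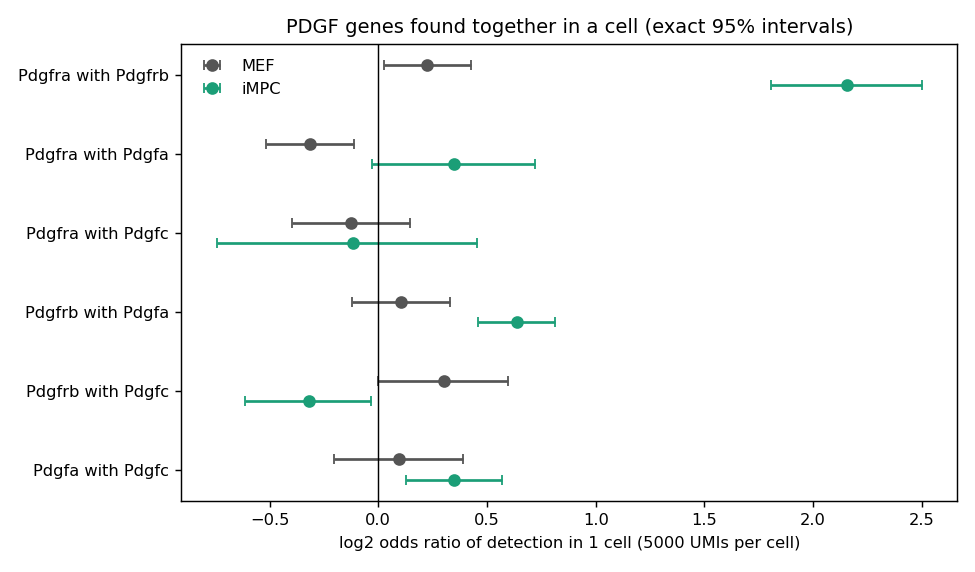
Log2 odds ratio (horizontal axis) that 2 PDGF genes were found in the same cell, for 4 members at 5000 UMIs per cell, in MEF (grey) and iMPC (green), with exact 95% intervals and a vertical line at independence. The receptor pair stands at 2.15 in iMPC and 0.23 in MEF.

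The Pax7 class was divided by Mki67, a gene of cycling cells. In the 1127 Pax7 cells with a Mki67 UMI Pdgfra stood at 2.97 CPM and Pdgfrb at 42.6 CPM. The 1053 without one had 14.8 and 85.8 CPM. Both receptors were thus lower in the cells with Mki67, by log2 ratios of -2.32 for Pdgfra (-2.70 to -1.95) and -1.01 for Pdgfrb (-1.12 to -0.90). Pdgfa went the other way, with 94.95 against 74.1 CPM (0.36, 0.26 to 0.46), as did Pdgfc, with 37.1 against 22.1 CPM (0.75, 0.58 to 0.92). In Pax7 cells with no Dcn UMI the ratios were -1.90 for Pdgfra (-2.49 to -1.34), -0.84 for Pdgfrb (-0.97 to -0.71), 0.44 for Pdgfa (0.34 to 0.55) and 0.65 for Pdgfc (0.47 to 0.83). Median depth was 22221 UMIs in cells with Mki67 and 15673 in those without, and the part of depth in this split was not tested. In MEF, where 602 of 6043 cells held Mki67, the same split gave smaller ratios of -0.24 for Pdgfra (-0.33 to -0.15), -0.20 for Pdgfrb (-0.32 to -0.07) and -0.16 for Pdgfa (-0.27 to -0.05).

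**Figure D5:**
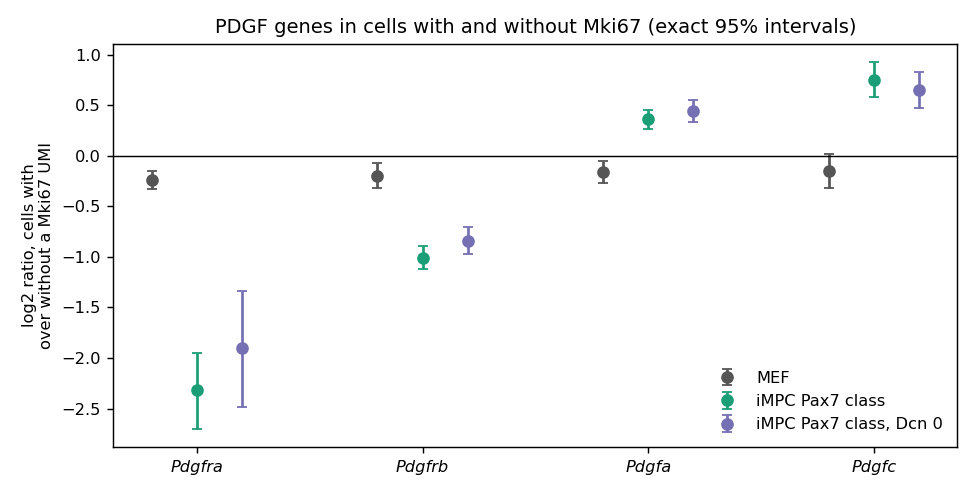
Log2 ratio of the level in cells with a Mki67 UMI over cells without one (vertical axis) for 4 PDGF genes in MEF, in the iMPC Pax7 class and in its cells with no Dcn UMI; bars are exact 95% intervals and the line marks no difference. In the Pax7 class the receptors lie below the line (-2.32 and -1.01) and the ligands above it (0.36 and 0.75), while all MEF points lie between -0.24 and -0.15.

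Within MEF, cells were also ranked by Acta2, the smooth muscle actin gene of contractile fibroblasts. In the 2014 cells of the highest Acta2 group Pdgfra stood at 63.8 CPM, against 113 in the 2015 of the lowest, a log2 ratio of -0.83 (-0.90 to -0.76). Pdgfrb changed less, from 48.6 to 43.2 CPM (-0.17, -0.27 to -0.07). Pdgfa was higher in the high group (76.9 against 48.9 CPM, 0.65, 0.57 to 0.74), as was Pdgfd (19.8 against 11.4 CPM, 0.80, 0.62 to 0.97). Pdgfc was at 22.8 and 24.4 CPM (-0.10, -0.23 to 0.03). Between the highest and lowest Acta2 groups, the alpha receptor and its ligand Pdgfa thus differed in opposite directions. Their detection together in 1 MEF cell gave no firm direction.

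Other genes of the pathway were counted between the libraries by the same 2-fold rule, by which 21.5% of all genes counted were lower and 14.8% higher in iMPC. Of 4 co-receptor and binding protein genes tested, 3 were at least 2-fold lower in iMPC, with a median of -1.49. They include Lrp1, an endocytic receptor that interacts with the beta receptor (log2 ratio -2.14, -2.17 to -2.12), and Sparc, a matrix protein that binds PDGF (-1.60, -1.60 to -1.59). Of 12 signal transducer genes tested, 2 were lower and 0 higher: the kinase gene Src at -2.13 (-2.23 to -2.04) and the adaptor gene Shc1 at -1.31 (-1.35 to -1.27). This count is close to the share over all genes. None of 4 tested genes of activating proteases passed 2-fold, with Plat, the tissue plasminogen activator that cleaves PDGF-C, at -0.93 (-0.98 to -0.88). None of 5 negative regulators passed either. Of 10 immediate early genes, which growth factor signals and many other stimuli induce, 5 were at least 2-fold higher in iMPC, among them Jun (2.53, 2.49 to 2.56) and Fos (1.81, 1.75 to 1.87).

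The genes closest in pattern to each receptor were found over 5 groups (MEF and the 4 classes) among 6347 genes, by the smallest root mean square difference of centred log2(CPM + 1). For Pdgfra they were Apbb1ip (0.14), Inhba (0.20), Ccl11 (0.22), Plac8 (0.27) and Loxl3 (0.27). For Pdgfrb they were the collagen genes Col6a1 (0.16), Col6a2 (0.20) and Col3a1 (0.29), with Il1r1 (0.28) and Cxcl14 (0.31). Col6a1 stood at 366 CPM in MEF and 1511 in the Dcn class, a likeness to Pdgfrb that the choice of the closest gene fixes. With a Pearson correlation in place of the difference, 1 of the 5 remained for Pdgfra and 0 for Pdgfrb.

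Cells next to each class limit were also read. Cells with exactly 5 Dcn UMIs (29) had 24.0 CPM of Pdgfra and 158 of Pdgfrb, and those with 4 (54) had 32.4 and 154. Cells just inside the Ckm limit (105) had 5.58 CPM of Pdgfb (3.46 to 8.53) and those just outside (115) had 2.03 (0.926 to 3.85). These separate intervals overlap narrowly, which does not show equal levels, and no interval of the ratio was computed. Just inside the Pax7 limit, at 1 UMI, 889 cells had 10.9 CPM of Pdgfra and 68.2 of Pdgfrb. Just outside it, 1420 cells without Pax7 or Myog had 25.4 and 107 CPM. Just inside the Myog limit, 77 cells had 3.23 and 15.1 CPM of the receptors, and just outside, 118 cells had 5.52 and 18.3. Receptor levels thus did not differ beyond counting error across the Dcn and Myog limits, and at the Pax7 limit they were higher on the side without Pax7. Neither side of the Pax7 limit was limited in Dcn, and Dcn-class cells without Pax7 had 68.6 CPM of Pdgfra. The part of Dcn-rich cells in this step was not tested. Barcodes within 1000 UMIs above the cell minimum (134) had 8.77 and 75.4 CPM of the receptors. Those within 1000 below it (119) had 11.2 and 49.5. The separate intervals overlap, for Pdgfrb only in part (60.3 to 93.1 above and 35.9 to 66.4 below). This does not show equal levels, and no interval of these ratios was computed.

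Free RNA in droplets sets a lower limit to these shares. In iMPC barcodes of 1 to 100 UMIs Pdgfra stood at 10.2 CPM and Pdgfrb at 23.9 CPM. At a free share equal to 430 of the median 20846 UMIs, this profile would put a Pdgfra UMI in 0.105% of cells at 5000 UMIs and a Pdgfrb UMI in 0.246%. The 430 UMIs are the median of barcodes of 200 to 600 UMIs, whose own profile would give 0.0335% and 0.134%. The Pdgfra share of the Ckm class, 2 of 1037 cells (0.193%, 0.02 to 0.695%), cannot be told from either value. Pdgfrb in the Ckm class (1.54%, 0.884 to 2.49%) was above both, as was Pdgfb there (3.09%, against 0.0200% and 0.0320%). For Pdgfd in the Pax7 class, the interval of 2 of 2180 cells (0.0917%, 0.0111 to 0.331%) held the 0.0188% of the first profile but not the 0.0087% of the second.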

How the data were processed

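The deposited matrices hold UMI counts per gene and barcode, which the authors made with Cell Ranger 4.0, per the submitters' processing notes, which also name Seurat 3.2.3 and GRCm38.p6. Cells were loaded on the 10x 3′ kit v3, per the labels' protocols. The MEF sample's protocol text repeats that of iMPC while its treatment label names MEF media, and the label was used. The iMPC matrix lists empty droplets, so barcodes of at least 8036 UMIs were taken as cells; the MEF barcodes had been selected before deposit in a way not given in the sources used here. Doublets were kept, and were marked with Scrublet in scanpy 1.11.5 for an alternative. Its own threshold marked 1 MEF cell, so the highest 5% of MEF scores were used.

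Counts were summed over cells and divided by the group's total (CPM). Poisson, binomial (Clopper-Pearson) and conditional intervals were computed with scipy 1.17.1. The intervals of level ratios, the fold call and the thinning were tested on simulated data, and the other intervals were not. A floor of 3 counts was used for zeros. A gene was called at 2-fold with at least 10 CPM in the higher group. Positions come from GENCODE M21. The members, lists and cell splits were chosen with earlier results of these data known. Named pathway genes are the largest rise or fall of each list, in size, 2 per list, and the pattern neighbours are the 5 closest genes per receptor. The Mki67, Acta2 and Dcn splits describe cells of 1 library. All 17 alternatives planned were run.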

Additional observations from a re-analysis of the deposited data

Results flagged for a closer look

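Values were also read in iMPC barcodes that no comparison used. The 11319 barcodes above 600 UMIs and below the cell minimum (median 901 UMIs) held all 6 members above the limit that a count of 0 allows. Their levels were 7.51 CPM for Pdgfra, 21.3 for Pdgfrb, 26.7 for Pdgfa, 1.44 for Pdgfb, 10.2 for Pdgfc and 1.08 for Pdgfd. Pdgfra was thus near its level in the cells (7.10 CPM), and Pdgfrb, Pdgfa and Pdgfc were below theirs.

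The 191 barcodes over 20% mitochondrial UMIs (median 15386 UMIs) gave 1.20 CPM for Pdgfra, 5.69 for Pdgfrb, 30.5 for Pdgfa, 8.98 for Pdgfb, 3.59 for Pdgfc and 1.50 for Pdgfd. Their order resembles that of the Ckm class, with 1.09, 5.24, 33.6, 5.69, 3.43 and 2.36 CPM. No explanation was tested.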

How the results depend on the processing

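No comparison had replicates, so no library could be left out. No paired analysis was possible because each group holds 1 library and no test was made. A first tally covers the receptor ratios of iMPC over MEF, the receptor odds with Pax7 and the count of members at least 2-fold lower. Of these recomputed values, 30 kept their direction and size, 10 moved and 2 changed sign. Of all other recomputed values, 263 kept them, 93 moved and 2 changed sign. Ratios of Ckm over Pax7 cells moved in 18 cases and stayed in 48, and those of Myog over Pax7 cells in 14 and 52. Shares of cells moved in 18 cases and stayed in 24 for iMPC, and in 19 and 23 for MEF. Pdgfra's log2 ratio of iMPC over MEF was -3.45 when scaled by the median gene, -3.49 without mitochondrial and ribosomal protein genes and -3.31 as the mean of each cell's CPM. Pdgfrb's was -0.040, -0.081 and 0.078 in the same order, -0.29 at 12000 UMIs or more and -0.16 with 10% free RNA subtracted. The count of members at least 2-fold lower was 1 at a minimum of 50 CPM, which leaves out Pdgfd. The log2 odds ratio of Pdgfra with Pax7 was -1.89 when detection needed 2 UMIs. That of Pdgfrb with Pax7 was 1.06 without thinning and -0.15 at 2 UMIs (-0.84 to 0.47). The MEF receptor pair changed sign to -0.052 at 2000 UMIs and -0.25 at 2 UMIs, so its small positive value depends on both settings. Depth limits shares near 0, such as that of Pdgfb in MEF, with 1 UMI in 6043 cells.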
